A study of Mus musculus and Homo sapiens with 28 samples.

Results

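Gene expression was compared between 5 tumour libraries labelled SETD2 KD VE822 and 6 labelled WT VE822. These 11 libraries are all those of their 2 labels among the 24 mouse libraries of the series, which holds 28 libraries in all. The tumours came from Renca, a mouse renal carcinoma cell line, injected under the skin of the back in Matrigel. Both groups received VE822, an inhibitor of the kinase ATR, given orally by gavage (60 mg/kg) 5 days a week from a tumour volume of about 100 mm3. By their labels the groups differ in genotype only: WT stands for wild type and SETD2 KD for knockdown of SETD2. Differences between the libraries that the labels do not give are described below. How the knockdown was made, whether the cells were 1 clone or a pool, and the strain, sex and age of the mice are not given in these sources. Whether each library is a separate animal is not stated either. The p-values thus measure the spread between libraries, which may in part be technical. The reference groups without drug were 7 libraries labelled WT untreated and 6 labelled SETD2 KD untreated. Of 46078 gene rows, 15916 reached a mean of at least 3 on the deposited scale and were tested. That scale is the regularised logarithm (rlog), a log2 scale on which the counts of weakly expressed genes are drawn towards their mean, so differences of such genes are understated. Read depth is unknown.

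SETD2 is the main enzyme that trimethylates histone H3 along the bodies of transcribed genes, and its gene is often inactivated in clear cell renal carcinoma. ATR is activated by single-stranded DNA at stalled replication forks and, through the kinase CHK1, slows the cell cycle and protects the forks. When this checkpoint is blocked, unrepaired DNA can reach the cytoplasm, where the sensor cGAS signals through STING to interferon genes. A subcutaneous tumour is a mixture of tumour cells, fibroblasts and the matrix they make, vessels and immune cells. In such bulk RNA, fewer cells of a type and less RNA per cell cannot be told apart.

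Setd2 (chr9:110532597-110618633, plus strand, GRCm38) was the first gene examined, since it checks the label. In the 6 libraries labelled WT VE822 its rlog values were 9.97, 9.83, 9.58, 10.23, 10.28 and 10.28, and in the 5 labelled SETD2 KD VE822 they were 9.62, 9.42, 9.75, 9.96 and 9.86. The ranges overlapped, with 1 library of the knockdown label below all those of the WT label. The mean was lower by 0.31 (log2) under the knockdown label, 10.03 ± 0.29 (SD, n = 6) against 9.72 ± 0.21 (SD, n = 5). Over all 462 arrangements of the 11 libraries, a two-sided exact permutation test gave p = 0.0823, where the smallest possible p was 0.00216. In limma, which pooled the spread over all 24 libraries, the same difference was -0.31 ± 0.10 (SE). Its limma p was 0.00613 unadjusted and 0.225 adjusted over all genes tested. Every untreated library of either label stood above all 11, between 10.70 and 10.91, and the untreated groups differed by -0.02. Setd2 RNA thus did not separate the genotype labels, and the libraries are called below by what they are labelled.

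Several libraries stood apart within the VE822 groups. Replicate 4 of SETD2 KD VE822 had an Igf2 value of 6.37, whereas the other 4 libraries of its label had 10.82 to 11.35, the WT VE822 libraries 9.10 to 11.13 and the untreated libraries 5.76 to 6.63. Igf2 encodes a fetal growth factor. Over the 282 genes that changed at least 2-fold between the WT labels with and without VE822, this library showed a median 0.12 of the change, against 0.95 to 1.03 in the other 4. The median deviation of its chromosome 10 genes from the untreated level was 0.03, against -0.25 to -0.21 in the other 4 and -0.29 to -0.24 in WT VE822. Its median correlation with its own group was 0.984, against 0.996 for each of the others. Its Setd2 value of 9.96, however, lay among those of the VE822 groups. A list of skeletal muscle transcripts averaged 8.43, 6.50 and 7.03 in WT VE822 replicates 1, 2 and 4, against 4.57 to 4.93 in the other 8 libraries. Xist, the RNA that female cells express, was high (8.77 to 9.92) in 2 of 6 WT VE822 libraries and 3 of 5 SETD2 KD VE822 libraries and low (5.72 to 5.95) in the rest, which had the higher values of the Y-linked gene Ddx3y. In the untreated groups Xist was high in 4 of 7 WT libraries and 6 of 6 SETD2 KD libraries, so the labels were not balanced for it there either. Many results below are also given without SETD2 KD VE822 replicate 4 or without the 4 doubted libraries. The doubted libraries are SETD2 KD VE822 replicate 4 and WT VE822 replicates 1, 2 and 4. A result given with all libraries alone may still rest on them. The labelled tissue is kidney, and the renal transcription factor Pax8 was well detected in both groups, with means of 11.01 in WT VE822 and 11.19 in SETD2 KD VE822. Of 22 renal identity genes listed, 18 reached the mean of 3, and the means of Hnf4a, 3.48 and 3.40, were close to it.

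**Figure D1:**
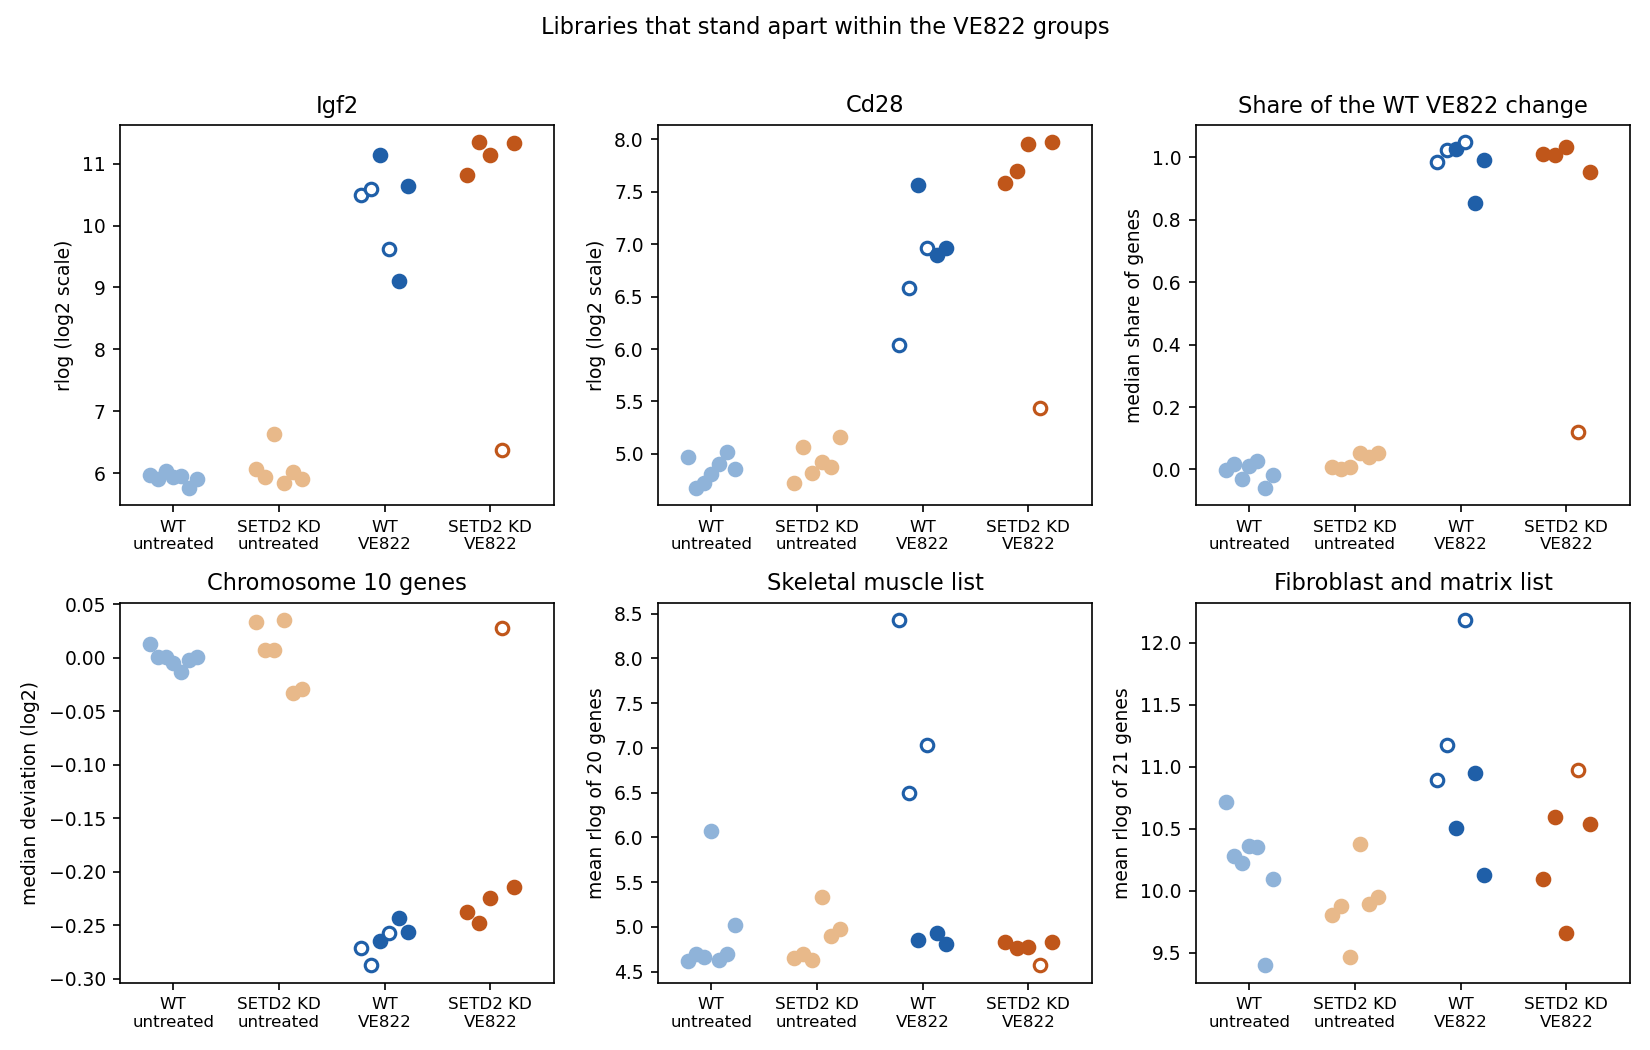
Values per library in the 4 groups: rlog of Igf2 and Cd28 (log2 scale), the median share of the WT VE822 change over 282 genes, the median deviation of chromosome 10 genes from the untreated level (log2), and the mean rlog of the skeletal muscle and the fibroblast and matrix lists. Open circles are the 4 doubted libraries: SETD2 KD VE822 replicate 4 lies near the untreated groups for Igf2 (6.37) and chromosome 10 (0.03), and WT VE822 replicates 1, 2 and 4 have muscle means of 8.43, 6.50 and 7.03.

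Few genes were called between the genotype labels under VE822, which does not show that the differences were small. By limma with Benjamini-Hochberg adjustment over all genes tested, 2 of 15916 genes (0.0126%) passed an adjusted p of 0.05. Mfsd12, a transporter of lysosomes and pigment granules, was the gene that rose (0.00628% of genes tested), and Fmod, a collagen-binding proteoglycan of the extracellular matrix, was the gene that fell (0.00628%). At an unadjusted p of 0.05 there were 2031 genes (12.8%), of which 1062 (6.67%) were higher and 969 (6.09%) lower under the knockdown label. The 2 groups did not overlap at all for 55 higher genes (0.346%) and 42 lower genes (0.264%). Without replicate 4 of SETD2 KD VE822, 3 genes passed, namely Fmod, Mfsd12 and Igsf11, the last named after its values were seen. The groups then did not overlap for 126 higher and 80 lower of the 15916 genes. With 1 library fewer, groups separate more easily by chance, so these counts cannot be set against the 55 and 42. Without all 4 doubted libraries 7 genes passed. The number was set strongly by single libraries: 46 genes passed without WT VE822 replicate 3, 24 without SETD2 KD VE822 replicate 1, 11 without WT VE822 replicate 1 and 6 without WT VE822 replicate 5. The calls used a spread per gene that was pooled over all 24 libraries, and the untreated groups varied less. The median SD within a group was 0.11 in WT untreated and 0.10 in SETD2 KD untreated. It was 0.15 in WT VE822 and 0.16 in SETD2 KD VE822. When the spread was estimated from the 11 VE822 libraries alone, no gene passed in limma and 873 had an unadjusted p below 0.05.

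**Figure D2:**
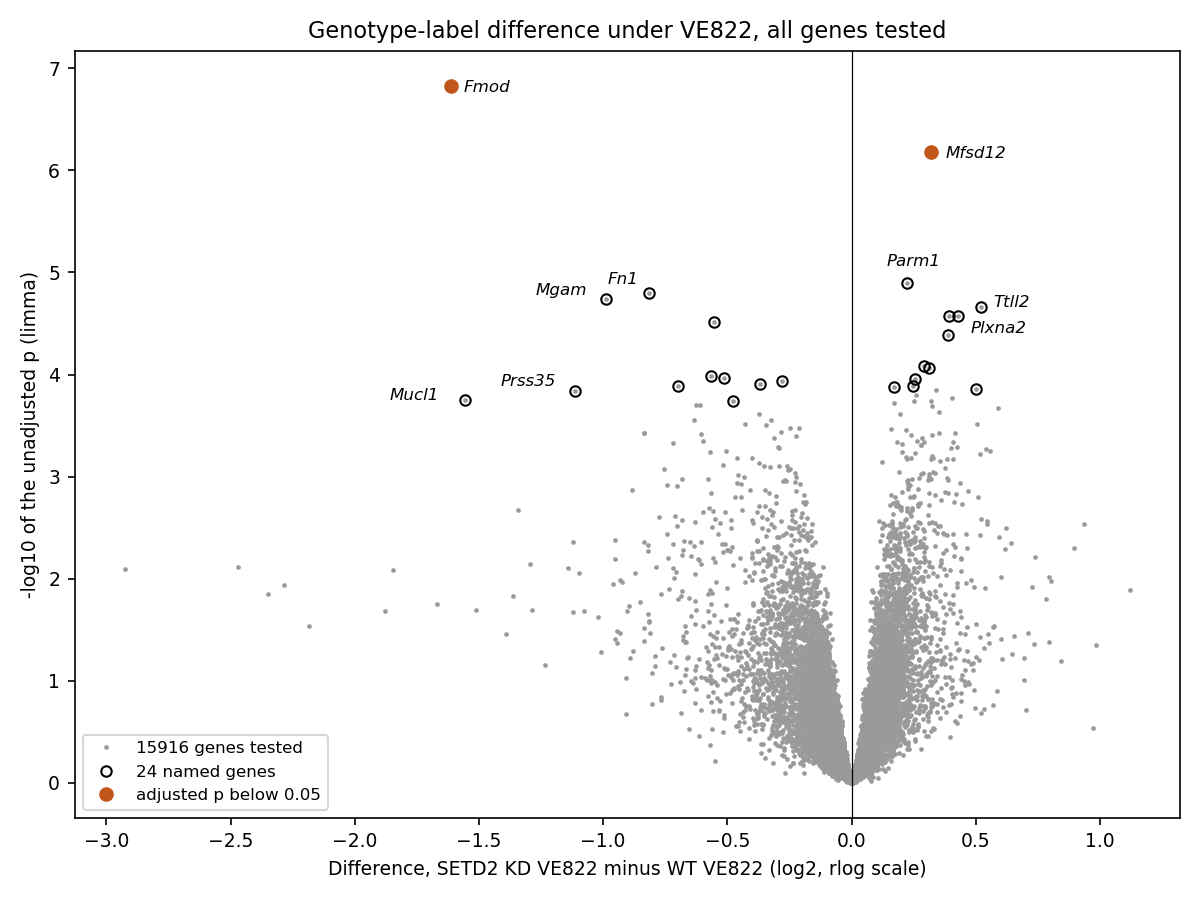
Difference between the means of SETD2 KD VE822 and WT VE822 (horizontal, log2 on the rlog scale) and -log10 of the unadjusted limma p (vertical) for 15916 genes. Open circles are the 24 genes named by the naming rule, and filled circles are Fmod (-1.61) and Mfsd12 (0.32), which pass the adjusted threshold; the wide spread to the left at moderate p holds skeletal muscle genes such as Myh1 (-2.93).

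Fibromodulin, encoded by Fmod (chr1:134037254-134048277, plus strand, GRCm38), is a small leucine-rich proteoglycan that binds collagen fibrils. Its rlog values in the WT VE822 libraries were 8.40, 8.99, 8.54, 9.25, 9.38 and 9.73. In the SETD2 KD VE822 libraries they were 7.27, 7.63, 7.602, 7.18 and 7.503. All 5 lay below all 6, and the gap between the groups was wider than the spread within SETD2 KD VE822. The means were 9.05 ± 0.51 (SD, n = 6) and 7.44 ± 0.20 (SD, n = 5), a fall of 3.05-fold on the rlog scale. In limma the difference was -1.61 (95% interval -2.06 to -1.16), with an adjusted p of 0.00236. The untreated groups ranged from 7.25 to 8.17 under the WT label and from 6.82 to 7.97 under the knockdown label, and their means differed by -0.27. The SETD2 KD VE822 libraries thus lay within the untreated range, while the WT VE822 libraries all lay above it. Fmod passed under 21 of 22 alternative settings and missed the threshold, with an adjusted p of 0.100, when only the 11 VE822 libraries were fitted. Its difference was -1.55 without replicate 4 of SETD2 KD VE822 and -1.71 without the 4 doubted libraries, and it passed in both.

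Mfsd12 (chr10:81357491-81366225, plus strand) was higher under the knockdown label by a small but even amount. The WT VE822 values were 11.58, 11.50, 11.73, 11.67, 11.73 and 11.70, and the SETD2 KD VE822 values were 11.88, 12.001, 11.89, 12.08 and 12.001. The groups did not overlap, and their SDs were 0.09 and 0.08. The rise of 1.25-fold (0.32 on the log2 scale, 95% interval 0.22 to 0.42) had an adjusted p of 0.00523 in limma. Without treatment the difference was 0.09, with group ranges of 11.57 to 11.76 and 11.65 to 11.78. The call held under 18 of 22 alternatives. It was lost when only the 11 libraries were fitted, after quantile normalisation (adjusted p = 0.0614), when each library's chromosome medians were removed (0.0627) and without the 4 doubted libraries (0.138). Mfsd12 lies on chromosome 10, whose genes had a median difference of 0.07 between the groups, or 0.02 without replicate 4 of SETD2 KD VE822. Its gene span overlaps that of Fzr1 on the opposite strand, and Fzr1 itself differed by 0.01.

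**Figure D3:**
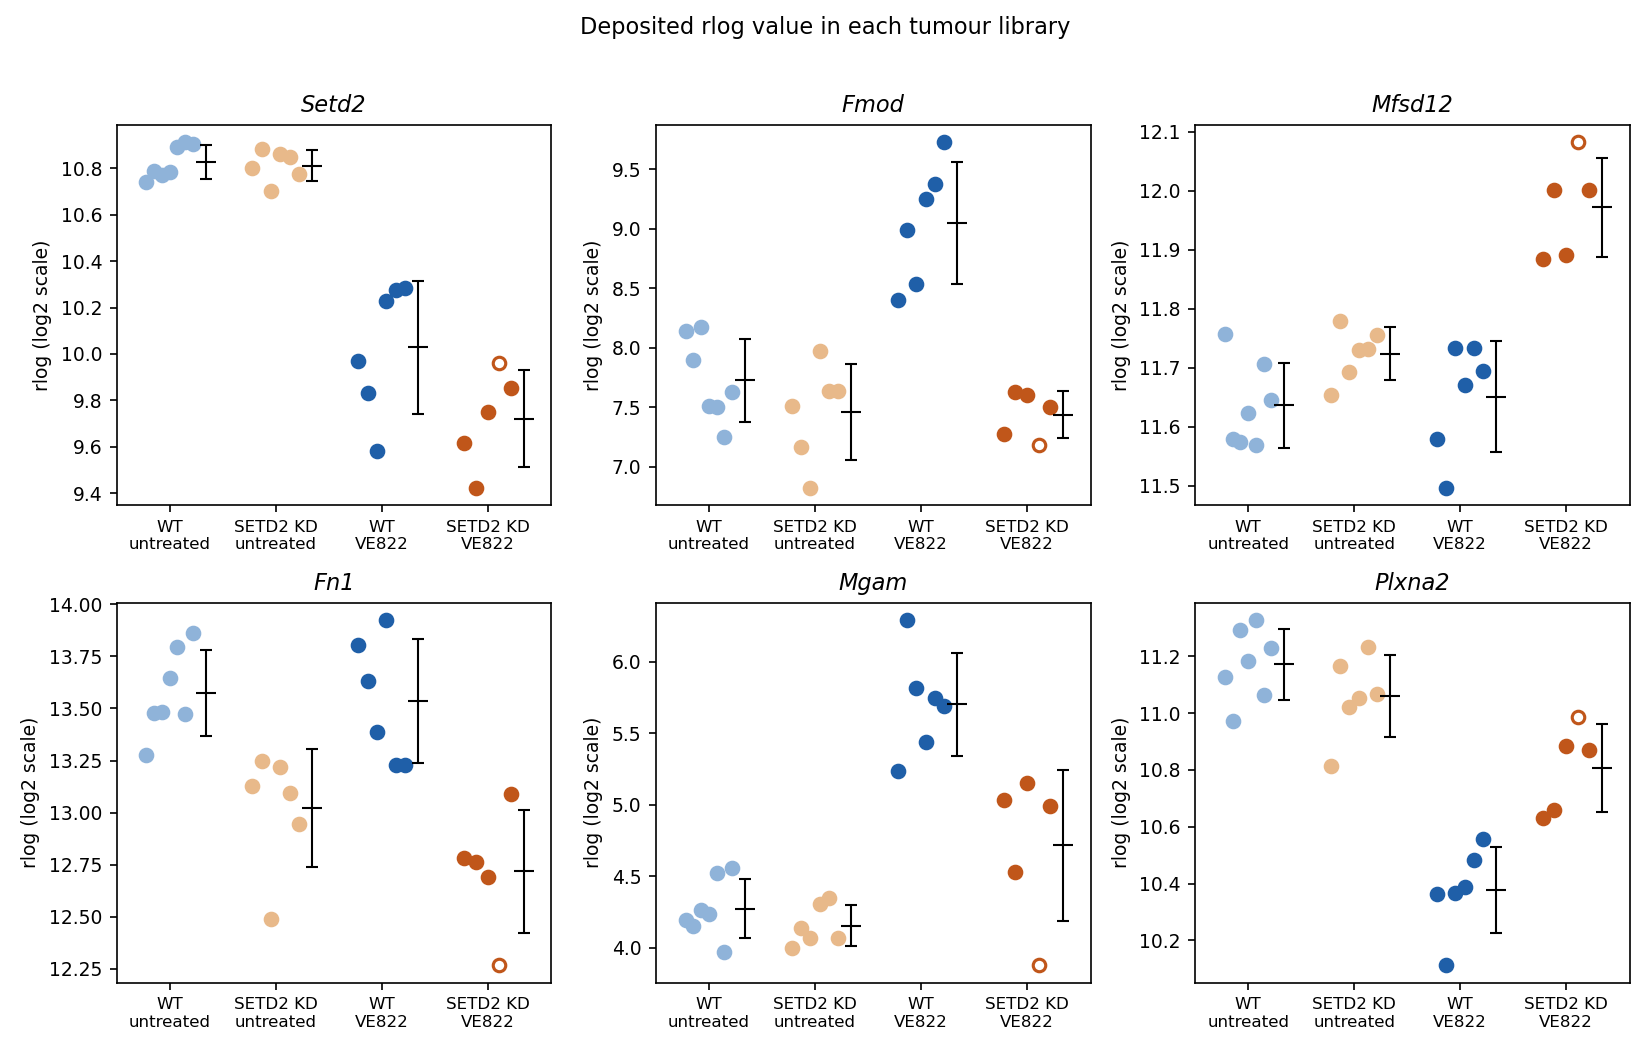
Deposited rlog values (log2 scale) of Setd2, Fmod, Mfsd12, Fn1, Mgam and Plxna2 in all 24 libraries, with each group's mean and SD as a bar to the right of its points; the open circle is SETD2 KD VE822 replicate 4. Setd2 is low in both VE822 groups, Fmod separates the 2 VE822 groups, and Fn1 is lower under the knockdown label with and without VE822.

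Fn1 encodes fibronectin, the matrix protein to which cells attach through integrins. It was the next matrix gene after Fmod and did not pass (adjusted p = 0.0535 in limma). The WT VE822 values were 13.81, 13.63, 13.39, 13.92, 13.23 and 13.23, and the SETD2 KD VE822 values were 12.78, 12.76, 12.69, 12.26 and 13.09. The groups did not overlap, and the difference was -0.82 ± 0.15 (SE). Without treatment the difference was -0.55, with ranges of 13.28 to 13.86 and 12.49 to 13.25, so the untreated groups did not overlap either. The difference under VE822 was -0.45 without the 4 doubted libraries (adjusted p = 0.371).

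Matrix genes as a list were lower under the knockdown label, with 1 member called. Of 21 fibroblast and extracellular matrix genes, all tested, 20 had lower means, Fmod passed the test and 8 had an unadjusted p below 0.05, beside 6.09% of all genes in that direction. The median difference was -0.61, against 0.00 over all genes tested. Among the fibrillar collagens, Col1a1 differed by -0.95 ± 0.43 (SE) and Col3a1 by -0.89 ± 0.45, while Pdgfra, a receptor of fibroblasts, differed by -0.82 ± 0.35 and the contractile gene Acta2 by -0.11 ± 0.34. These members are examples chosen after their values were seen. The mean of the list was 10.89, 11.18, 10.50, 12.18, 10.94 and 10.13 in the WT VE822 libraries and 10.10, 10.59, 9.66, 10.98 and 10.54 in the SETD2 KD VE822 libraries. The ranges overlapped. The highest value, 12.18, belonged to WT VE822 replicate 4, which was also high in muscle transcripts. The list's median difference was -0.25 without the 4 doubted libraries, -0.75 without replicate 4 of SETD2 KD VE822 alone, and -0.30 between the untreated groups. What part tissue content had in these differences was not tested.

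The small leucine-rich proteoglycans, the family of Fmod, were listed after the Fmod result was known, so their count supports nothing. Of 12 tested members 11 were lower, with a median of -0.55. Fmod was the member whose groups did not overlap. Ogn (osteoglycin) differed by -0.88 ± 0.24 (SE) and Prelp by -0.68 ± 0.18, with neither passing, whereas Lum (lumican) differed by -0.94 ± 0.42 and Dcn (decorin) by -0.77 ± 0.52, within wide errors. The median was -0.13 without the 4 doubted libraries, while Fmod kept a difference of -1.71 there.

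The naming rule takes 12 genes per direction, and the other 22 of them, Fn1 included, did not pass, with adjusted p values from 0.0535 to 0.097 in limma. They were chosen by their p, so their values are a description only. Among those lower under the knockdown label, Mgam, an intestinal and renal brush border maltase, had values of 5.24, 6.29, 5.81, 5.44, 5.75 and 5.69 in WT VE822 and 5.03, 4.53, 5.15, 3.88 and 4.99 in SETD2 KD VE822. The groups did not overlap, with a difference of -0.99 ± 0.18 (SE). The lowest value, 3.88, was that of replicate 4, which lay below the untreated means of 4.27 and 4.16. Without replicate 4 the difference was -0.78 (adjusted p = 0.0680), and without the 4 doubted libraries it was -0.82 and passed (adjusted p = 0.0336). Mgam passed under 7 of the 21 alternatives in which it was tested.

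Other genes lower under the knockdown label were Mucl1, a mucin-like secreted protein, with a difference of -1.56 ± 0.35 (SE), and Prss35, a serine protease homologue, with -1.11 ± 0.25. Mucl1 ranged from 7.02 to 8.83 in WT VE822 and from 5.69 to 6.82 in SETD2 KD VE822 and did not overlap. Its untreated difference was nearly as large, -1.31. Sorcs2, a sorting receptor of the VPS10 family, differed by -0.70, the kinase Dyrk4 by -0.55, the guanine nucleotide exchange factor Dennd2d by -0.57, Macrod2 by -0.51, the transporter Abca6 by -0.48, Ulk4 by -0.37 and the ciliary gene B9d2 by -0.28. Differences for Sorcs2, Dennd2d, Macrod2 and Prss35 shrank to -0.38, -0.32, -0.33 and -0.65 without the 4 doubted libraries. Ulk4 and Dennd2d overlap other genes on the opposite strand, Ctnnb1 and Cept1, and whether reads were counted by strand is not given in the sources used here.

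Genes higher under the knockdown label differed by smaller amounts. Plxna2, a receptor for semaphorin guidance cues, had values of 10.36, 10.11, 10.37, 10.39, 10.48 and 10.56 in WT VE822 and 10.63, 10.66, 10.88, 10.99 and 10.87 in SETD2 KD VE822. The groups did not overlap, and the difference was 0.43 ± 0.08 (SE). Both lay below the untreated means of 11.17 and 11.06, WT VE822 further than SETD2 KD VE822. Slfn8, an interferon-inducible gene of the schlafen family, had means of 10.67 in WT VE822 and 11.06 in SETD2 KD VE822, a difference of 0.39 ± 0.08. Its untreated means were 11.07 and 11.02, so the mean of WT VE822 alone lay below them. Slfn8 has close relatives in its family, between which reads can be split. Adamts5, a protease that cleaves aggrecan, was higher by 0.39, Ttll2 by 0.52, Unc93a2 by 0.50, Golm1, a Golgi membrane protein, by 0.31, Mical2, an actin-oxidising enzyme, by 0.29, the autophagy regulator Trp53inp2 by 0.25, Frrs1 by 0.25, Parm1 by 0.22 and Gpr107 by 0.17. Parm1 had the smallest p of these, with WT VE822 values of 11.97 to 12.22 below SETD2 KD VE822 values of 12.25 to 12.42 and untreated means of 12.31 and 12.32. Without the 4 doubted libraries the difference was 0.27 for Parm1 and 0.34 for Mical2, and both then passed (adjusted p = 0.0459 and 0.0353).

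**Figure D4:**
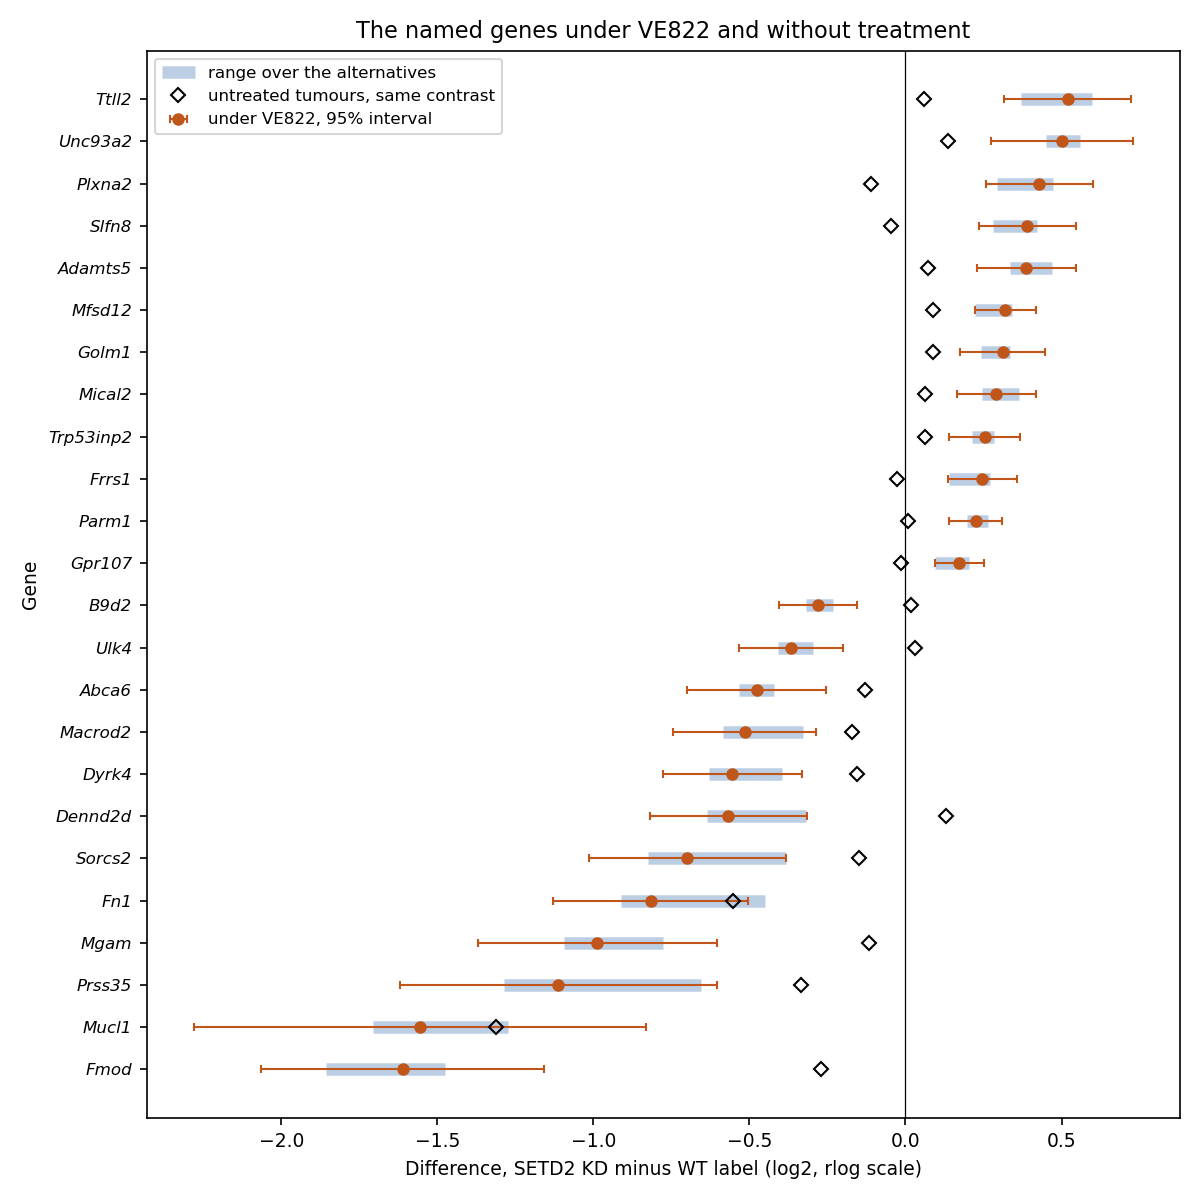
Differences between the genotype labels (SETD2 KD minus WT, log2 on the rlog scale) for the 24 named genes, which were chosen by their results under VE822. Filled circles with bars are the difference under VE822 and its 95% interval, pale bands the range over the alternative settings, and open diamonds the same contrast in untreated tumours; Fn1 (-0.55) and Mucl1 (-1.31) differ by similar amounts without treatment, and Fmod (-0.27) and Mfsd12 (0.09) by less.

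No gene's difference between the labels was shown to depend on the drug. In the limma interaction, which asks whether the genotype-label difference under VE822 differed from that without treatment, 0 of 15916 genes passed and 1452 had an unadjusted p below 0.05. The interaction of Fmod was -1.34 ± 0.30 (SE), with an unadjusted p of 0.000151 and an adjusted p of 0.424. Between the untreated groups no gene passed and 512 had an unadjusted p below 0.05. The untreated contrast shares no library with that under VE822, and 46.7% of all genes had the same sign in both. The share was 44.8% of the 2031 genes with an unadjusted p below 0.05 under VE822 and 42.3% of the 97 whose groups did not overlap. Without replicate 4 of SETD2 KD VE822 it was 53.2% of all genes and 65.4% of the 2020 genes below that p. Among the 24 named genes, 17 had the same sign without treatment, and none had a larger difference there than under VE822. These genes were chosen by their p under VE822, so smaller differences in other libraries follow in part from that choice.

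Averaging the genotype-label difference over treated and untreated tumours, a contrast added after the data were seen, gave 5 genes with an adjusted p below 0.05 in limma. Fmod fell by 0.94 and Mfsd12 rose by 0.20 on the log2 scale. Fn1 fell by 0.68 (adjusted p = 0.00569) and Mucl1 fell by 1.43 (adjusted p = 0.0106). Cd22, an inhibitory receptor of B cells, rose by 0.62 (adjusted p = 0.00569), with means of 6.55 and 7.19 in the untreated WT and knockdown labels and of 6.88 and 7.47 under VE822. The difference of Cd22 was 0.64 without treatment and 0.59 under VE822, that of Fn1 -0.55 and -0.82, and that of Mucl1 -1.31 and -1.56. The labels averaged here were not balanced for Xist, as given above.

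Interferon genes had higher means in most members, and none passed. Of 39 genes of the type I interferon response, 37 were higher, 15 of them with an unadjusted p below 0.05 beside 6.67% of all genes, and the median difference was 0.16. Stat2, part of the factor that carries the interferon signal to the nucleus, differed by 0.41 ± 0.10 (SE, adjusted p = 0.117 in limma), and Parp14 by 0.47 ± 0.13. For Stat2 the means were 10.72 ± 0.23 (SD) in WT VE822 and 11.13 ± 0.24 in SETD2 KD VE822, against 11.04 and 11.002 in the untreated groups. The mean of the list was 9.70, 9.63, 9.42, 9.96, 9.79 and 9.71 in WT VE822 and 9.89, 10.00, 10.01, 9.99 and 9.58 in SETD2 KD VE822. The ranges overlapped, and replicate 5 of SETD2 KD VE822 was low. Of 23 genes of the interferon-gamma response and chemokines, 22 were higher and 9 had an unadjusted p below 0.05, with a median of 0.49. Gbp7, a guanylate-binding protein, differed by 0.62 ± 0.19, and Irf1, a transcription factor induced by interferon, by 0.38 ± 0.12. The median of this list was 0.51 without replicate 4 of SETD2 KD VE822, 0.64 without the 4 doubted libraries, and 0.07 between the untreated groups. Its library means were 8.48 to 9.67 in WT VE822 and 9.04 to 10.06 in SETD2 KD VE822, so the groups overlapped.

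The sensors upstream of interferon showed smaller differences. Of 15 genes of cGAS-STING and DNA sensing, 8 were higher and 7 lower, with a median of 0.03, which became -0.02 with each library's chromosome medians removed. Cgas itself had means of 6.14 and 6.13, and Tmem173, which encodes STING, differed by 0.11 ± 0.08 (SE). Ifi204, an interferon-inducible DNA sensor with close relatives, differed by 0.27 ± 0.08 (adjusted p = 0.174 in limma). MHC class I presentation had 18 of 19 members higher, with a median of 0.14 that became 0.25 without replicate 4 of SETD2 KD VE822 and 0.18 without the 4 doubted libraries. H2-T24 differed by 0.39 ± 0.15 and the peptide-trimming enzyme Erap1 by 0.19 ± 0.07.

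Immune cell markers were mixed in direction, with no member called. Of 20 T cell genes 18 were higher, with a median of 0.22 (0.34 without the 4 doubted libraries) and library means of 5.04 to 6.19 in WT VE822 and 5.43 to 6.22 in SETD2 KD VE822. Cd4 differed by 0.80 ± 0.29 (SE) and the T cell receptor kinase Zap70 by -0.63 ± 0.19, in opposite directions and with neither passing. Replicate 4 of SETD2 KD VE822 held the highest Cd4 value, 8.95, and without it the difference of Cd4 was 0.48. Cd28, the costimulatory receptor, was 5.44 in that library, above the untreated means of 4.85 and 4.93, and 7.58 to 7.97 in the other 4, against 6.03 to 7.57 in WT VE822. Its difference was 0.49 ± 0.31 with all libraries and 0.97 without replicate 4 (adjusted p = 0.0584). Cytotoxic and NK cell genes had 8 of 10 members higher with a median of 0.21, and Nkg7, a granule protein of killer cells, differed by 0.57 ± 0.25. Of 14 B cell and plasma cell genes listed, 8 were tested, with 6 higher, 2 lower and a median of 0.15. Cd22 differed by 0.59 ± 0.14, whereas the 2 lower members were Cd79a at -0.50 ± 0.28 and Igkc at -0.39 ± 0.33. Without replicate 4 of SETD2 KD VE822, Cd79a differed by -0.02 and Igkc by -0.61. Checkpoint genes were divided, 9 higher and 6 lower, with Cd274, which encodes PD-L1, at 0.26 ± 0.12. The median of the checkpoint genes was 0.08, or 0.20 without the 4 doubted libraries. Macrophage genes had 7 members higher and 11 lower, neutrophil genes 4 and 7, and mast cell genes 2 and 3. The medians of these 3 lists were -0.09, -0.13 and -0.22, and without the 4 doubted libraries they changed sign to 0.08, 0.19 and 0.16. Dendritic cell genes had 9 members higher and 3 lower, with a median of 0.10, or 0.01 without replicate 4 of SETD2 KD VE822.

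**Figure D5:**
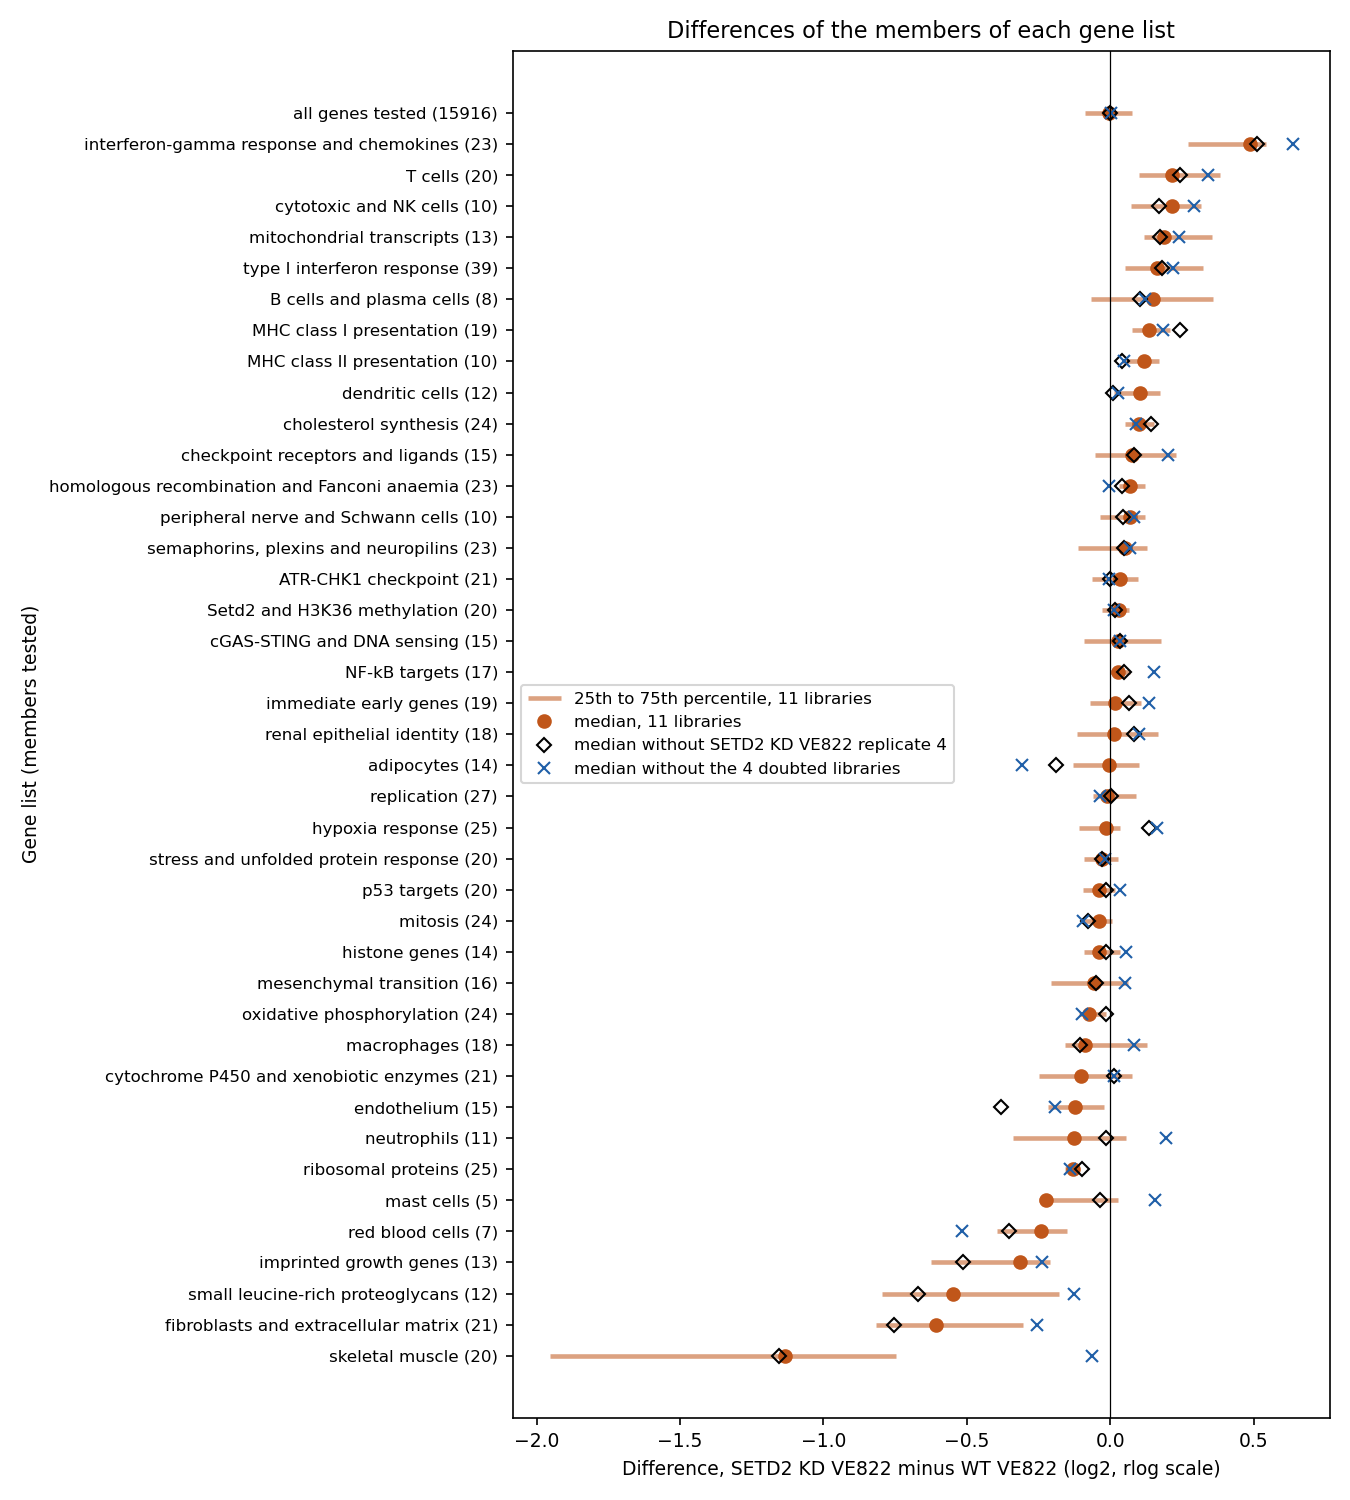
Median difference between SETD2 KD VE822 and WT VE822 (log2 on the rlog scale) of the tested members of each gene list with at least 5 such members; the number tested is in brackets. Filled circles and bars are the median and the 25th to 75th percentile with all 11 libraries, diamonds the median without SETD2 KD VE822 replicate 4, and crosses the median without the 4 doubted libraries; the muscle median moves from -1.13 to -0.06 and the matrix median from -0.61 to -0.25, while the interferon-gamma median moves from 0.49 to 0.64. The WT VE822 libraries among the doubted ones were chosen by their muscle values, so the muscle move follows from that choice.

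Genes of the drug's own pathway and of its target process were close to the all-gene median. Of 21 ATR-CHK1 checkpoint genes 12 were higher and 9 lower, with a median of 0.03. Atr differed by 0.11 ± 0.09 (SE), Chek1 by 0.16 ± 0.09 and the ATR activator Topbp1 by 0.14 ± 0.06. Replication genes had a median of -0.01 over 27 members, or 0.01 with chromosome medians removed, with Gins2, a subunit of the replicative helicase, at -0.22 ± 0.08 and Mcm4, another subunit, at 0.12 ± 0.04. Homologous recombination and Fanconi anaemia genes had 20 of 23 members higher with a median of 0.07, or -0.01 without the 4 doubted libraries. Mitosis genes had a median of -0.04 over 24 members and p53 targets of -0.04 over 20. Among 20 tested genes of Setd2 and histone methylation at its site the median was 0.03, Setd2 had the lowest difference, -0.31, and Dnmt3a, a DNA methyltransferase recruited to gene bodies, the highest, 0.21 ± 0.09.

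Several lists lay to one side with small or unevenly spread differences. All 25 ribosomal protein genes tested were lower, with a median of -0.13 and Rps14 at -0.26 ± 0.10 (SE), none passing, and all 25 were also lower after quantile normalisation and with chromosome medians removed. Mitochondrial transcripts had 12 of 13 members higher, with a median of 0.19. For mt-Co3, a subunit of cytochrome c oxidase, the groups did not overlap, with means of 8.73 ± 0.10 (SD) and 9.08 ± 0.21 and an adjusted p of 0.194 in limma. The difference of mt-Atp8 was 0.94 ± 0.28 (SE) and shrank to 0.65 without replicate 4 of SETD2 KD VE822. The genes of mt-Atp8 and mt-Co3 both overlap mt-Atp6 on the same strand, and how reads over 2 genes were counted is not given in the sources used here. Oxidative phosphorylation genes of the nucleus had 21 of 24 members lower, with a median of -0.07. Without replicate 4 of SETD2 KD VE822 that median was -0.02, and without the 4 doubted libraries -0.10. Imprinted growth genes had 12 of 13 members lower, with a median of -0.31, or -0.51 without replicate 4 of SETD2 KD VE822 and -0.24 without the 4 doubted libraries. Cdkn1c, an imprinted cell cycle inhibitor, differed by -0.68 ± 0.21 and the imprinted RNA H19 by -1.29 ± 0.52, and without the 4 doubted libraries they differed by -0.24 and -0.19. Igf2 differed by -0.06 with all libraries and by 0.90 without replicate 4 of SETD2 KD VE822 (adjusted p = 0.167 in limma). That library was doubted in part for its own Igf2 value, so this shift tests nothing.

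Skeletal muscle transcripts had all 20 tested members lower under the knockdown label. Of these, 18 had an unadjusted p below 0.05, beside 6.09% of all genes in that direction, and none passed. The median was -1.13 with all libraries and -0.06 without the 4 doubted ones. Cacna1s, the calcium channel of muscle, differed by -0.77 ± 0.23 (SE) and by -0.13 without those libraries, and Tnni2, a troponin of fast muscle, by -1.12 ± 0.36 and by -0.12. Myh1, a myosin of fast muscle fibres, had the lowest difference of all genes tested, -2.93. All the defining muscle markers tested had higher means in the WT VE822 group, with library means of 4.81 to 8.43 against 4.57 to 4.83. WT VE822 replicates 3, 5 and 6 had 4.85, 4.93 and 4.81, at or near the SETD2 KD VE822 range, so the raised values were those of replicates 1, 2 and 4.

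Among 23 semaphorins, plexins and neuropilins, which guide axons and vessels, 15 were higher and 8 lower. Plxna2 was the member without overlap that was higher, beside 0.346% of all genes. Sema3a, a secreted ligand of the neuropilin and plexin A receptors, was the member without overlap that was lower, beside 0.264% of all genes. Both were named for the smallest p of the list, so their lack of overlap is a description only. Sema3a had means of 5.10 ± 0.32 (SD) and 4.48 ± 0.19, a difference of -0.62 with an adjusted p of 0.097 in limma. Of 18 renal identity genes tested, 10 were higher and 8 lower, with a median of 0.01. Pou3f3, a transcription factor of the developing kidney, had the highest difference, 0.90 ± 0.29 (SE), and Krt19 the lowest, -0.68 ± 0.43. Without replicate 4 of SETD2 KD VE822 these differences were 0.45 and -0.10. The Pou3f3 value of that library, 9.95, was above the untreated means of 9.35 and 9.24. Over the 41 lists, 2 held a called member, Fmod in each case, and in all 41 the library means of the groups overlapped.

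None of the lists that follow held a called member. Endothelial genes had 13 of 15 members lower, with a median of -0.12 that became -0.38 without replicate 4 of SETD2 KD VE822, and all 7 red blood cell genes were lower, with a median of -0.24 that became -0.52 without the 4 doubted libraries. Hypoxia genes had 11 members higher and 14 lower with a median of -0.02, or 0.14 without that library, in which their mean was 11.16 against 11.88 to 12.14 in the rest of its group. Cholesterol synthesis had 18 of 24 members higher with a median of 0.10, and Hmgcs1, an early enzyme of that pathway, differed by 0.23 ± 0.08 (SE). Adipocyte genes were evenly divided, 7 higher and 7 lower, with a median of 0.00 that became -0.31 without the 4 doubted libraries. Mesenchymal transition genes had 10 of 16 members lower with a median of -0.06, or 0.05 without the 4 doubted libraries. Cytochrome P450 and xenobiotic enzymes had 13 of 21 members lower, 4 of them with an unadjusted p below 0.05 beside 6.09% of all genes. Their median was -0.10 and changed sign to 0.01 both without replicate 4 of SETD2 KD VE822 and without the 4 doubted libraries. Cyp4f40, a fatty acid hydroxylase of the latter list, differed by -1.08 ± 0.43 with all libraries and by -0.38 without replicate 4 of SETD2 KD VE822, whose value of 5.61 was below the untreated means of 6.19 and 6.36.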

How the data were processed

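RNA-seq of 24 mouse tumours was used, of which 11 form the comparison. The authors deposited 1 table of rlog values on the log2 scale, made over the 24 libraries together. The tools are listed as TopHat, HTSeq, DESeq2 and FastQC, with the build GRCm38 and without versions, per the submitters' processing notes. Counts cannot be recovered, so depth is unknown. Genes were named from GENCODE vM21 (97.97% of rows matched). The members, lists and tests were chosen with earlier results of these data known.

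limma 3.58.1 (R 4.3.3) was fitted to the rlog values of all 24 libraries (4 group means, empirical Bayes with a mean-variance trend), for the 15916 genes with a mean rlog of at least 3. Of the other rows 16906 were 0 throughout. Benjamini-Hochberg adjustment ran over all genes tested, and the script was tested on simulated data. Setd2 was also tested by an exact permutation test. Named were the 12 genes per direction with a called difference or else the smallest p (predicted genes, pseudogenes and receptor segments left out), 7 fixed genes, and per list the called members or else the 2 with the smallest p. Of 776 genes on 41 lists, 702 were tested. The alternatives were 22: other filters, scalings, variance models, covariates and libraries left out. Replicates were numbered in accession order and pair nothing.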

Additional observations from a re-analysis of the deposited data

Results flagged for a closer look

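Within groups of 5 or 6 libraries, 8 of 144 sets of values examined had a library far from the others relative to the group's range. Chance gives about 1 in 20, so the number of flags was near that of chance, and a single flag is a description only. Replicate 4 of SETD2 KD VE822 accounted for 5 of the 8. Its Igf2 value was 6.367, with the nearest of its group at 10.82. Its Cd28 value was 5.438, with the nearest at 7.578. Its list means were 7.212 for dendritic cells (nearest 6.789), 4.569 for skeletal muscle (nearest 4.77) and 11.16 for the hypoxia response (nearest 11.88). Replicate 5 of SETD2 KD VE822 had a type I interferon mean of 9.584, with the nearest at 9.892. Replicate 2 of WT VE822 had a Slfn8 value of 10.37, with the nearest at 10.69, so the difference of Slfn8 rests in part on it. Replicate 4 of WT VE822 had a mean of 8.262 over cytochrome P450 and xenobiotic enzymes, with the nearest at 7.976.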

How the results depend on the processing

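The count of called genes was 2 (1 higher, 1 lower). It was 0 with only the 11 VE822 libraries, 1 (lower) after quantile normalisation, 4 with no filter on low values, 6 (2 higher, 4 lower) with chromosome medians removed, 7 without the 4 doubted libraries and 8 with tissue list means as covariates. Library weights and an Xist class covariate gave 3 each, and leaving out 1 library gave 2 to 46. The doubted libraries and the Xist covariate were chosen after seeing the data. The interaction had 0 called genes under every alternative run. Setd2 differed by -0.397 (without WT VE822 replicate 3, exact permutation p = 0.0317) to -0.233 when 1 library was left out. Of 2316 values of the 106 named genes under alternatives, 2238 kept direction and side of the threshold, 44 gained a call, 5 lost one (Fmod 1, Mfsd12 4) and 29 changed sign, in 12 genes that never passed. The cause was not tested. Without the 4 doubted libraries these were Chek1 -0.0408, Igf2 0.872, H2-Oa 0.0427, Cd163 0.0968, Il1r2 0.0465, Hdc 0.156, Sbsn 0.259, Trp63 0.0837, Cxcl2 0.175 and Egln3 0.277. With tissue covariates they were Cgas 0.0414, Trp63 0.0458, Cxcl2 0.152, Egln3 0.0876 and H19 0.103. Library weights gave Igf2 0.979 and Cxcl2 0.0172, and quantile normalisation gave Cgas 0.0484. Leaving out 1 library moved Cgas from -0.13 to 0.0651, Igf2 from -0.347 to 0.898, H2-Oa from -0.262 to 0.0101, Sbsn from -0.594 to 0.0084 and Trp63 from -0.151 to 0.026. No paired analysis was possible because the labels give no replicate numbers. Depth is unknown, so no limit from depth can be given.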
